A study of Mus musculus with 12 samples.

Results

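Chromatin accessibility was compared between LSD1 knockout and wild-type follicular B cells (FoB), the recirculating B cells that fill the follicles of the spleen. The comparison took the 6 FoB libraries of a series of 12, with 3 labelled knockout and 3 labelled wild-type, and 89782 of the 94161 regions in the deposited table. A region was kept where at least 3 of the 12 libraries reached 1 rppm (reads in a region per 1000000 reads over all listed regions), the unit of all levels below. Knockout and wild-type FoB alike were unstimulated spleen cells of female C57BL/6J mice, sorted as B220+ CD23+ CD1d- cells with intermediate CD21 and no Thy1.1, F4/80, CD11b, CD93 or GL7 on their surface. Each library held 10000 cells. The other 6 libraries, 3 knockout and 3 wild-type, came from marginal zone B cells (MZB), sorted as CD23- CD1d+ cells with high CD21, and are used for comparison. The sources used here do not give the cells in which LSD1 was deleted, a Cre line if any, the age of the mice, or whether each library is from another mouse.

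LSD1, encoded by Kdm1a, is an enzyme that takes methyl groups off histone H3, at lysine 4 in most settings. It works within corepressor complexes with CoREST and histone deacetylases and is known for closing enhancers as cells change state. In B cells it is known for its part in marginal zone and plasma cell formation. In ATAC-seq the Tn5 transposase cuts open DNA, so the reads in a region measure how open it is over all cells of a library. In such bulk samples, fewer cells with an open region and a region less open in each cell cannot be told apart.

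The FoB libraries held 4832426, 4854978 and 3934641 reads in regions in knockout 1 to 3, against 3652551, 10375328 and 4188425 reads in wild-type 1 to 3, so wild-type 2 was read most deeply. A count of 3 reads is worth between 0.2891 rppm in wild-type 2 and 0.8213 rppm in wild-type 1. Regions of the sorted surface markers followed the labels only in part. The region at Fcer2a, which encodes CD23, was at 65.8 ± 0.436 rppm in knockout and 63.43 ± 5.49 rppm in wild-type FoB, above 31.32 ± 2.85 and 26.49 ± 5.11 rppm in knockout and wild-type MZB (SD, n = 3 each). The region at Cd9, an MZB surface protein gene, was lower in FoB than in MZB. The region at Cr2, which encodes CD21, went against the gate, with 73.08 rppm in wild-type FoB against 53.26 rppm in wild-type MZB, and the region at Cd1d1 did not pass the test between FoB and MZB. Kdm1a had 1 tested region, with 20.56 ± 0.061 rppm in knockout and 22.77 ± 1.92 rppm in wild-type FoB (log2 fold change -0.14 ± 0.16, limma adjusted p = 0.866). Where it lies relative to the deleted part is not given, so it does not check the genotype labels.

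The comparison asked which regions are more or less open in follicular B cells without LSD1. Of the tested regions, 484 (0.539%) passed the test at an adjusted p under 0.05, 287 (0.32%) more open in knockout and 197 (0.219%) less open. Of these, 122 (0.136%) were at least 2-fold higher and 83 (0.0924%) at least 2-fold lower, and 18 (0.02%) and 14 (0.0156%) passed 4-fold in the 2 directions. They were assigned to 382 protein-coding genes, by overlap or by nearest distance, so an assigned gene is a neighbour and not a known target. No overlap between knockout and wild-type levels was seen in 480 of the 484, 286 higher and 194 lower, against 14.7% of all tested regions, 7.18% higher and 7.51% lower. Called regions were among the more open ones, with a median mean of 8.35 rppm against 3.44 rppm over all tested, and wider, with a median of 529 bp against 353 bp. The median log2 fold change over all tested regions was -0.0208.

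Without wild-type 2, 501 regions (0.558%) passed, 363 (0.404%) higher and 138 (0.154%) lower in knockout. Of these, 375 were also called with all libraries. Another 109 were called only with wild-type 2 present, 35 higher and 74 lower, and 126 only without it, 111 higher and 15 lower. Among the 375, 333 had a larger absolute fold change without wild-type 2. Other libraries bore on the count too. It was 147 higher and 141 lower without knockout 1, 154 and 187 without knockout 2, 191 and 118 without knockout 3, 152 and 134 without wild-type 1, and 213 and 96 without wild-type 3. The calls that held whichever FoB library was left out numbered 141 of 484. The spread was estimated over all 12 libraries, and with the 6 FoB libraries fitted alone 205 of the 484 calls were kept. DESeq2 kept 150 of them.

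The regions that opened most lay near Grhl2, Cnr2, Steap3 and Rrm2b. In Grhl2, the gene of an epithelial transcription factor, a region (chromosome 15, 37346645 to 37347677) was at 13.66, 9.887 and 12.96 rppm in knockout 1 to 3, against 0.2738, 1.831 and 0.2388 rppm in wild-type 1 to 3. Its log2 fold change was 3.51 ± 0.31 with all libraries (adjusted p = 2.36e-09) and 4.05 without wild-type 2. A region 8907 bp from Cnr2, which encodes the cannabinoid receptor CB2 that helps to hold B cells in the marginal zone, stood at 16.35, 15.45 and 19.32 rppm in knockout, against 0.5476, 6.554 and 0 rppm in wild-type FoB (chromosome 4, 135885753 to 135886282). Wild-type 2 was the wild-type library nearest the knockouts in both regions. The Cnr2 fold change was 3.5 ± 0.43 on the log2 scale (adjusted p = 7.02e-06), and 4.59 without wild-type 2 (adjusted p = 2.25e-16). With robust eBayes and all libraries the Cnr2 call was lost (adjusted p = 0.16), and DESeq2 gave this region no adjusted p, whereas edgeR called it (3.07e-06). The Grhl2 call held with robust eBayes, DESeq2 and edgeR.

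The region 26845 bp from Steap3, a ferrireductase gene of iron uptake, varied widely among the wild-type libraries. It was at 24.63, 24.3 and 27.7 rppm in knockout, against 0.5476, 15.42 and 0.4775 rppm in wild-type FoB (chromosome 1, 120297926 to 120298358). Here wild-type 2 was closer to the knockouts than to the other two wild-type libraries. The log2 fold change was 3.36 ± 0.49 (adjusted p = 9.5e-05) with wild-type 2 and 4.68 (adjusted p = 1.13e-16) without it. Robust eBayes did not call it (0.262), DESeq2 gave it no adjusted p, and edgeR called it (0.000826). A region 51890 bp from Rrm2b, which encodes a ribonucleotide reductase subunit, was at 9.726, 10.5 and 10.42 rppm in knockout, against 0, 3.084 and 0.2388 rppm in wild-type FoB, with a log2 fold change of 3.29 ± 0.41 (adjusted p = 8.18e-06; 4.14 without wild-type 2). The elongation factor gene Tcea3 had a region at 8.898, 8.239 and 8.641 rppm in knockout, against 1.095, 4.819 and 0.4775 rppm in wild-type FoB (2.17 ± 0.35, adjusted p = 0.000516; 2.86 without wild-type 2). In all 3, wild-type 2 lay between the knockouts and the other wild-type libraries, which stood close to each other. edgeR called Rrm2b and Tcea3 as well, and DESeq2 did not (adjusted p = 0.0924 and 0.307).

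The regions that closed most lay at Lgr6, Dbi, Rab7b and Ren1. Lgr6 encodes a receptor for R-spondins, and a region in it (chromosome 1, 135095113 to 135095653) was at 0, 0.6179 and 0.2542 rppm in knockout, against 13.14, 8.385 and 12.42 rppm in wild-type FoB. Its log2 fold change of -3.95 ± 0.28 (adjusted p = 1.88e-11; -4.15 without wild-type 2) was the furthest below 0 among the called regions. Dbi encodes a protein that binds acyl-CoA esters, and a region 13328 bp away was at 2.483, 1.442 and 1.525 rppm in knockout, against 24.09, 11.66 and 20.77 rppm in wild-type FoB (-3.03 ± 0.23, adjusted p = 1.32e-10; -3.33 without wild-type 2). The knockout libraries stood together at a low level in both, and wild-type 2 was the lowest of the wild-type libraries.

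Near Ren1, the renin gene, a region was at 1.449, 1.442 and 1.525 rppm in knockout, against 16.15, 11.47 and 14.33 rppm in wild-type FoB (-2.86 ± 0.23, adjusted p = 2.67e-10), and all 3 tested regions assigned to Ren1 were called lower. In Rab7b, the gene of a GTPase of late endosomes, the knockout libraries held 3 reads together and the wild-type libraries 90, a ratio of 22.4 once scaled for depth (95% counting interval 7.43 to 111). A region in Pithd1 held 0 reads in the knockout libraries together and 35 in the wild-type ones. Set against a floor of 3 reads over the knockout libraries, it was 8.72-fold lower in knockout, and the 95% counting interval began at 6.73-fold. Intervals and floors cover counting error only. Of the 10 higher and 10 lower regions with the largest fold changes, at most 1 per gene, wild-type 2 was the wild-type library nearest the knockouts in all 20, 10 of them higher and 10 lower. Of these 20, Ube2t lost its call on leaving out knockout 1, knockout 3 or wild-type 1 (adjusted p = 0.0575, 0.0534 and 0.0854). Cyb5r1 did so without knockout 3 or wild-type 1 (0.0593 and 0.0816), and Tox without knockout 2 (0.0524). DESeq2 also did not call Ube2t (0.567), Gm17266 (0.14) and Tox (0.084) and gave no adjusted p for Cyb5r1 and Pithd1, and robust eBayes did not call Gm17266 (0.153).

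**Figure D1:**
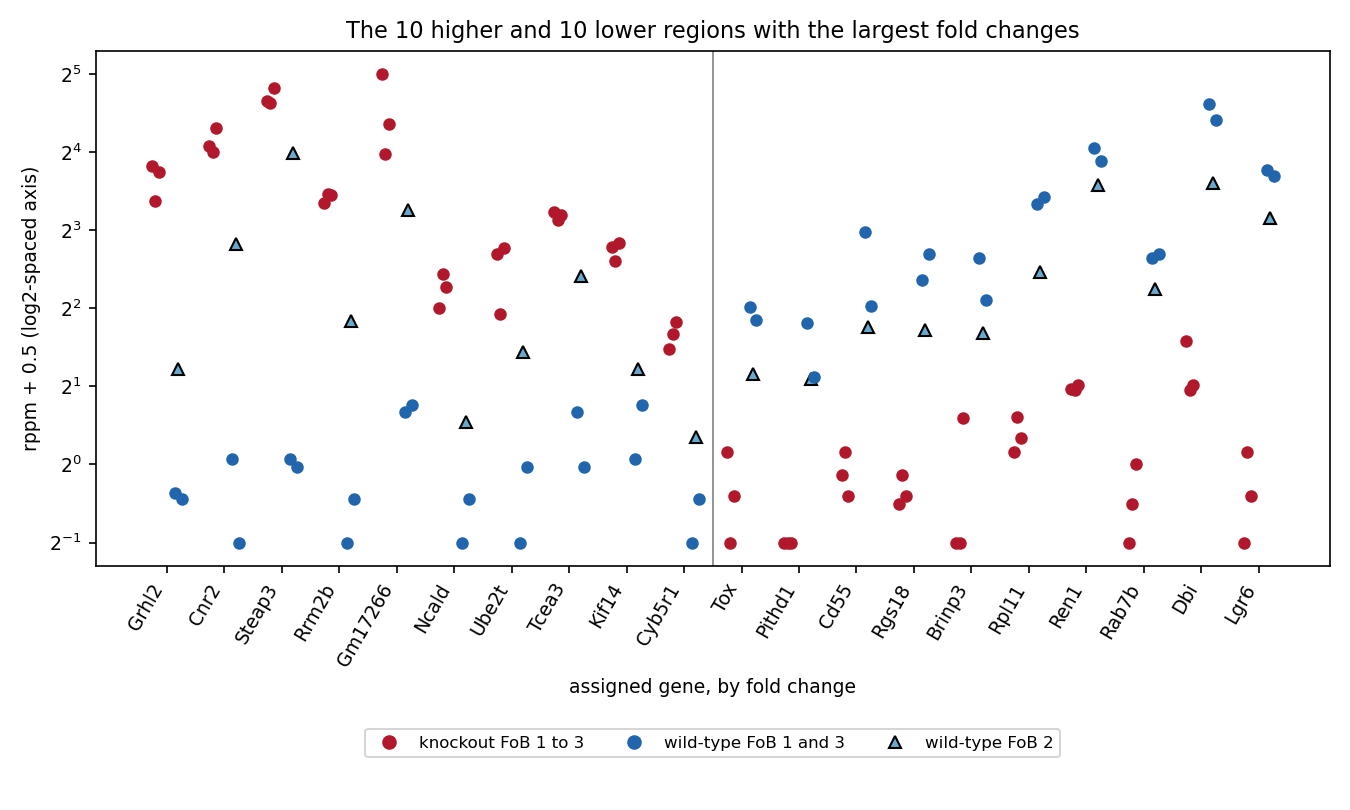
Level of the 10 higher and the 10 lower regions with the largest fold changes, 1 per gene, in each FoB library (points; y axis, rppm plus 0.5 on a log2-spaced axis; x axis, assigned gene). Wild-type 2 (triangles) lies on the knockout side of wild-type 1 and 3 in all 20 regions.

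To place each library between the genotypes, it was left out, regions were called with the remaining 5 FoB libraries in the fit, and its level was expressed as a percentage of the way from the other libraries of its own genotype (0%) to the other genotype (100%). Over the 48 regions called without wild-type 2 and at least 4-fold apart, wild-type 2 lay at a median of 35.0% (quartiles 29.0 and 45.6, range 13.2 to 87.2). In 43 of the 48 it lay between 20% and 80%. It lay at 34.6% for the 30 higher and at 39.6% for the 18 lower regions, so the shift did not follow one direction of change. The same quantity was 5.0% for knockout 1 (38 regions), 6.62% for knockout 2 (39) and -1.33% for knockout 3 (29). It was -19.8% for wild-type 1 and -15.8% for wild-type 3 (27 regions each). Wild-type 2 was part of the wild-type mean against which wild-type 1 and 3 were placed.

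Over all 501 regions called without it, wild-type 2 lay at a median of 34.4% (quartiles 17.8 and 49.8), and 347 of them (69.3%) put it between 20% and 80%. A library left out of the call had medians above 0 in the other cases as well, with 16.8%, 26.7% and 18% for knockout 1 to 3 and 10.8% and 7.55% for wild-type 1 and 3. With regions called by edgeR on the recovered reads, wild-type 2 lay at 33.9% (384 regions). Over the 484 regions called with all libraries, it was the wild-type library nearest the knockouts in 297 (61.4%), wild-type 1 in 116 (24.0%) and wild-type 3 in 71 (14.7%). Over the whole profile, the Spearman correlation of wild-type 2 was 0.954, 0.956 and 0.932 with knockout 1 to 3, against 0.933 with wild-type 1 and 0.964 with wild-type 3. It thus stood nearest wild-type 3, but nearer knockout 1 and 2 than wild-type 1. Wild-type 3 was likewise nearer knockout 1 and 2 (0.938 and 0.939) than wild-type 1 (0.929), so this does not set wild-type 2 apart. The greater depth of wild-type 2 goes with its values, and the part of depth in them was not tested.

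**Figure D2:**
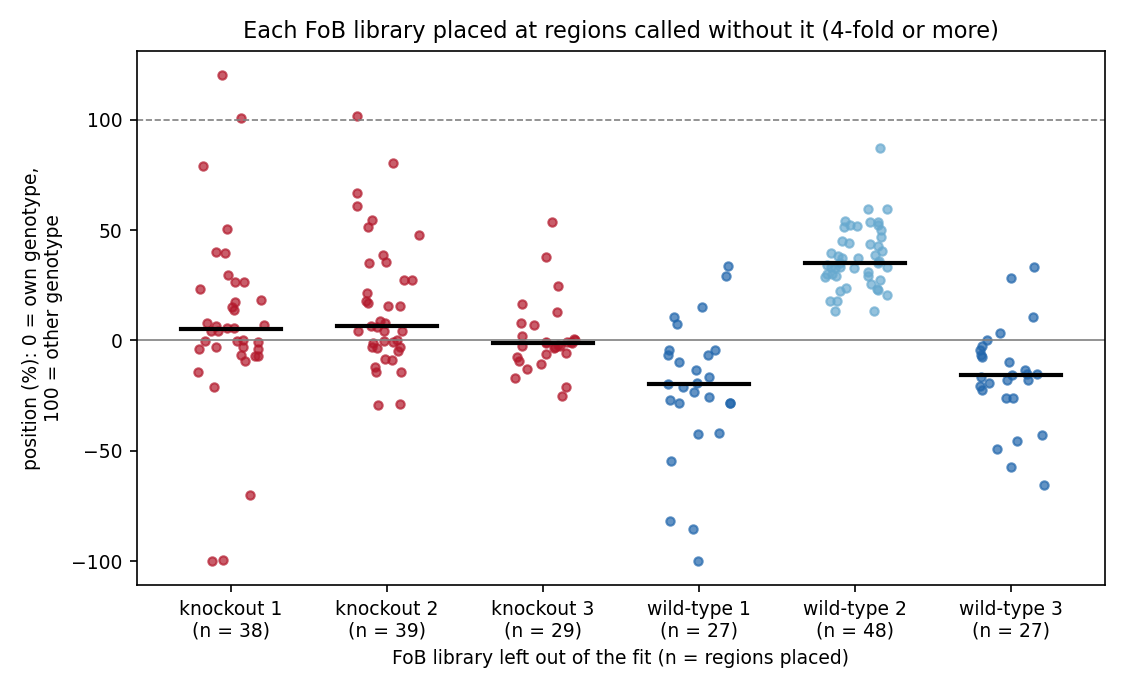
Position of each FoB library between its own genotype (0%) and the other (100%) over regions called without it and at least 4-fold apart (points, 1 per region; black bars, medians; y axis in %; values below -100% are drawn at -100%, 1 for knockout 1 and 1 for wild-type 1). Wild-type 2 has a median of 35.0%, and the other libraries have medians between -19.8% and 6.62%.

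The calls were not spread evenly over the genome. Windows of 5 Mb with at least 5 called regions that made up at least 5% of the tested ones, joined where they touched, gave 5 stretches. These held 113 of the 484 calls among 1449 tested regions (7.8%), 65 higher and 48 lower, against 371 among 88333 tested regions outside them (0.42%), 222 higher and 149 lower. The stretches were drawn from these calls, so the gap between both shares is a description. Changes in them were also larger, with a median absolute log2 fold change of 1.46 against 0.894 outside. Without wild-type 2 they held 113 calls as well, 69 higher and 44 lower.

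Chromosome 1 held 2 of the stretches. Between 120 and 125 Mb, 10 of 81 tested regions (12.3%) were called, among them all 3 called regions of Dbi, each lower, and all 4 of Steap3, each higher. Between 130 and 145 Mb, 54 of 728 (7.42%) were called, 19 higher and 35 lower, at 30 genes. They included 5 regions each of Rgs13 and Rgs18, 3 each of Kif14, Ppp1r12b, Ren1, Rgs1 and Syt2, and 2 each of Lgr6, Cd55 and Fcamr. From 130 to 135 Mb 13 were higher and 11 lower, and from 135 to 140 Mb 6 were higher and 9 lower. From 140 to 145 Mb all 15 calls were lower. In Ube2t, the gene of an E2 enzyme of DNA crosslink repair, a region in the gene body was called higher (2.33 ± 0.46) and the region over the start site lower (-0.65 ± 0.12).

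On chromosome 15 between 35 and 40 Mb, 20 of 242 tested regions (8.26%) were called, 18 of them higher. Ncald, which encodes a neuronal calcium sensor, alone had 8 called of 15 tested, all higher, with log2 fold changes between 1.22 and 2.54. Its leading region was at 3.518, 4.943 and 4.321 rppm in knockout, against 0, 0.9638 and 0.2388 rppm in wild-type FoB. Rrm2b had 5 called of 11 tested and Grhl2 2 of 8, all higher. On chromosome 18 between 80 and 85 Mb, 22 of 259 (8.49%) were called, 17 of them higher, with 5 of 8 at the gene model Gm17266 and 4 of 33 at the zinc finger gene Zfp516. Mbp, the gene of myelin basic protein, had a region at 18.62, 12.56 and 13.72 rppm in knockout against 4.381, 6.65 and 4.059 rppm in wild-type FoB (1.49 ± 0.2), and another at 3.104, 12.15 and 8.895 rppm in knockout against 15.33, 15.04 and 16.95 rppm in wild-type FoB (-1.11 ± 0.25), so neighbouring regions of 1 gene moved in opposite directions. The lower Mbp call was lost without knockout 1 (adjusted p = 0.265), wild-type 1 (0.0606) or wild-type 3 (0.0849).

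On chromosome 12 between 55 and 60 Mb, 7 of 139 tested regions (5.04%) were called, all higher. A region in Srp54b, which encodes a subunit of the signal recognition particle, was at 150.4, 144.8 and 194.4 rppm in knockout, against 105.7, 83.56 and 71.63 rppm in wild-type FoB (0.91 ± 0.11, adjusted p = 3.36e-06). Srp54c, its near-identical copy, had a region at 159.3, 151.0 and 203.8 rppm in knockout, against 121.0, 88.77 and 75.45 rppm in wild-type FoB. The 2 regions had like values library by library, and reads from near-identical copies cannot be assigned with certainty, so these calls, and those at Fam177a and Fam177a2, are uncertain. In this stretch wild-type 2 lay with the other wild-type libraries (median position -6.82%, quartiles -9.82 and 11.4). In the other 4 stretches its median lay at 38.3%, 35.7%, 23.7% and 30.2%.

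The window of chromosome 4 that holds Kdm1a, from 135 to 140 Mb, had 8 called of 325 tested regions (2.46%), 2 higher and 6 lower, and did not qualify as a stretch. It held the regions of Cnr2, Tcea3, Pithd1, Rpl11 and Id3 named here, at positions from 135885753 to 136263685, beside the Kdm1a region that starts at 136601890. A region 16648 bp from the ribosomal protein gene Rpl11 was at 0.6208, 1.03 and 0.7625 rppm in knockout, against 9.582, 5.012 and 10.27 rppm in wild-type FoB (-2.70 ± 0.3, adjusted p = 6.35e-07; -3.01 without wild-type 2). Wild-type 2 was the lowest of the wild-type libraries there, and over the window it lay at a median of 50.6%.

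**Figure D3:**
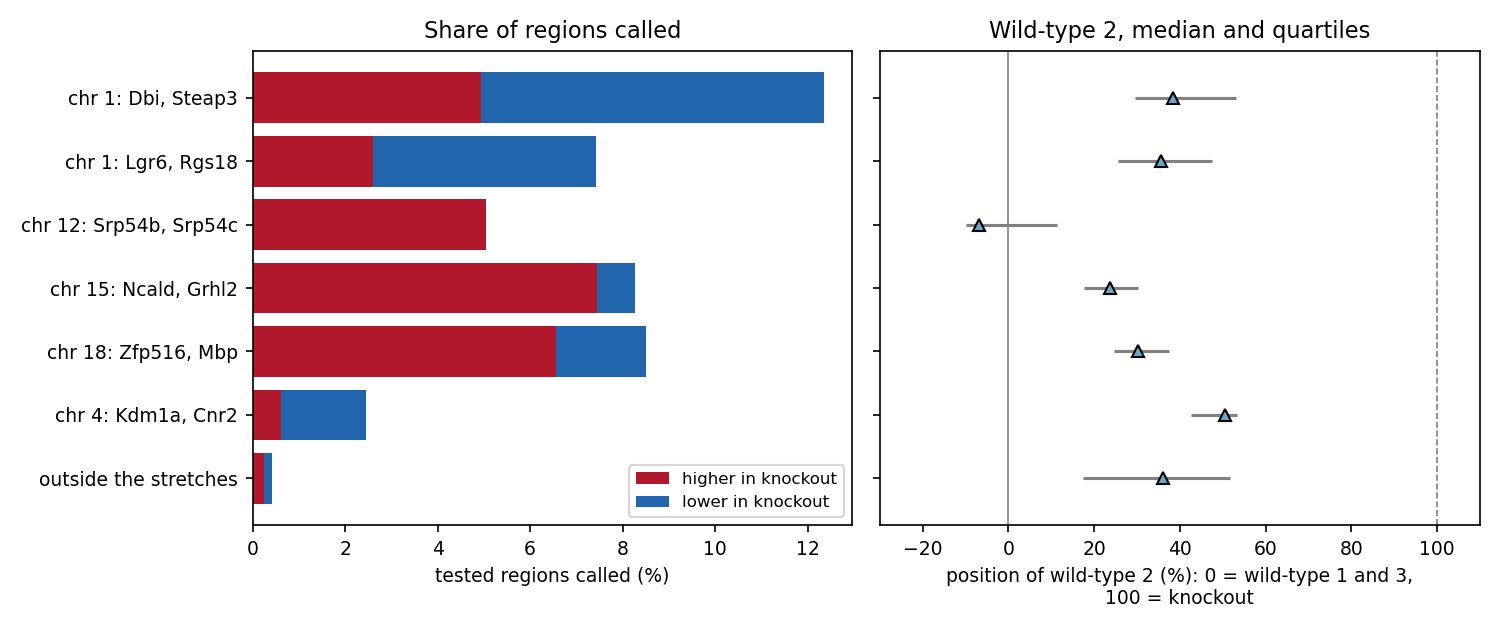
Left, share of tested regions called in FoB in each stretch, in the window of Kdm1a and outside the stretches (x axis, %; red, higher in knockout; blue, lower). Right, position of wild-type 2 over the regions called without it (triangles, medians; lines, quartiles; x axis, %), which is near 0% for the chromosome 12 stretch and between 23.7% and 50.6% for the other rows.

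Outside the stretches, 371 called regions lay at 325 genes, and 127 of them changed at least 2-fold. The lower regions with the largest changes included ones at Bcl2 and Cbfa2t3. Bcl2 encodes a protein that protects B cells from death. A region in its gene body was at 9.105, 5.973 and 2.796 rppm in knockout, against 17.52, 14.84 and 21.49 rppm in wild-type FoB (chromosome 1, 106561009 to 106561731). The groups did not overlap, and the log2 fold change was -1.63 ± 0.22 (adjusted p = 2.92e-05; -1.76 without wild-type 2). Cbfa2t3, a corepressor gene of blood cells, had a region at 0.6208, 0.4119 and 0 rppm in knockout, against 3.559, 2.024 and 2.149 rppm in wild-type FoB (-1.91 ± 0.43, adjusted p = 0.0215), and its adjusted p was 0.0503 without knockout 2, 0.145 without knockout 3, 0.15 without wild-type 1 and 0.06 without wild-type 3.

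Few reads made up other lower regions. A region in Sesn1, a stress response gene, held 3 reads over the knockout and 31 over the wild-type libraries (wild-type over knockout, ratio 7.73, counting interval 2.41 to 39.5). One 18580 bp from Cdk1, the mitotic kinase gene, held 2 reads over the knockout and 26 over the wild-type libraries (9.72, 2.43 to 84.5). Both missed the threshold without wild-type 2, with adjusted p = 0.0833 for Sesn1 and 0.054 for Cdk1. Leaving out knockout 2 or 3 or wild-type 1 or 3 also ended both calls, at adjusted p from 0.0562 to 0.207.

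Higher regions outside the stretches lay at Sec31a, Snd1, Medag, Stx7, St6galnac3 and Khdc1a. A region 27486 bp from Sec31a, which encodes a coat protein of vesicles leaving the endoplasmic reticulum, was at 10.97, 11.74 and 10.67 rppm in knockout, against 2.19, 4.144 and 3.581 rppm in wild-type FoB (1.65 ± 0.21, adjusted p = 8.63e-06; 1.81 without wild-type 2). One in Snd1, the gene of a coactivator and RNA-binding protein, was at 21.31, 9.887 and 15.76 rppm in knockout, against 3.559, 6.747 and 2.626 rppm in wild-type FoB (1.77 ± 0.27, adjusted p = 0.000222; 2.12 without wild-type 2). Both held whichever library was left out.

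The other 4 rested on low levels. A region near Khdc1a was at 2.69, 2.472 and 1.779 rppm in knockout, against 0, 1.06 and 0.4775 rppm in wild-type FoB, and its adjusted p was 0.0511 without knockout 1 and 0.0697 without wild-type 1. Medag missed it without knockout 2 (0.12) or wild-type 1 (0.0671). Stx7, the gene of an endosomal fusion protein, and St6galnac3, a sialyltransferase gene, each missed it without knockout 1, 2 or 3 or wild-type 1 or 3, at adjusted p between 0.0617 and 0.195. With wild-type 2 left out, all 4 were called, with log2 fold changes from 1.85 to 2.07.

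Of 341 called regions whose gene has a listed start site, 31 (9.09%) overlapped a start site. Of 198 higher regions whose gene has a listed start site, 13 (6.57%) overlapped it, and of 143 lower ones 18 (12.6%) did, against 11.9% of tested regions. Gene bodies were overlapped by 48.8% of the higher and 56.9% of the lower called regions, against 57.6% of tested regions. The promoters of 6 genes whose start-site region was called are shown, 250 bases upstream of the start from RefSeq on GRCm38.p6, because they carry the lower calls of the B cell genes Cxcr4, Cnr2 and Dgkg, the largest lower call (Rnpep), a lower call with an octamer (Lgr4) and a higher call (Crlf2). Each runs 5′ to 3′ on the gene's strand, and capitals mark 6 motifs searched on both strands, given with their share of 27025 promoters: CGGAAG of ETS factors (13.8%), GGGCGG of Sp and Klf factors (32.9%), the E-box CAGCTG (12.8%), TGANTCA of AP-1 (6.87%), the octamer ATGCAAAT (1.61%) and TGTGGT of Runx factors (14.2%).
Cnr2, chr4:135911430-135911679, plus strand: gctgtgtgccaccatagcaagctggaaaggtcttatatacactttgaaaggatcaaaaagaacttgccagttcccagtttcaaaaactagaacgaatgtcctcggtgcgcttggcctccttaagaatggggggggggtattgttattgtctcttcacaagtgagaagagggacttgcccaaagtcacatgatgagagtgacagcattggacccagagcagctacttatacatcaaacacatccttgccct
Cxcr4, chr1:128592300-128592549, minus strand: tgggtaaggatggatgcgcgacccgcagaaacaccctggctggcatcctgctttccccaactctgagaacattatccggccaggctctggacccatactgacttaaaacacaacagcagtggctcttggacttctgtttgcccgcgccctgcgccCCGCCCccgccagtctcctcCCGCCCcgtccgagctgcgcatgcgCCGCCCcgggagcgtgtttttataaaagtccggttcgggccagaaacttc
Dgkg, chr16:22657232-22657481, minus strand: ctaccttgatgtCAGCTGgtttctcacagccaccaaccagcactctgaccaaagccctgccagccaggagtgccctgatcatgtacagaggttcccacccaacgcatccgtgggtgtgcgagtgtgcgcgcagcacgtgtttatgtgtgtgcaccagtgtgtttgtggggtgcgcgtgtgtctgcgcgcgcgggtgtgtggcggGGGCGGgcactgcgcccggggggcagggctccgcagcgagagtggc
Rnpep, chr1:135284085-135284334, minus strand: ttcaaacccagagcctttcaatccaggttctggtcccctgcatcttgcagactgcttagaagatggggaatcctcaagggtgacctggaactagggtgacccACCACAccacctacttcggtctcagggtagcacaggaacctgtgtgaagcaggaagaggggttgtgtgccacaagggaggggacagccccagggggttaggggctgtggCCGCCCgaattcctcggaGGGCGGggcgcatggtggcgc
Lgr4, chr2:109917397-109917646, plus strand: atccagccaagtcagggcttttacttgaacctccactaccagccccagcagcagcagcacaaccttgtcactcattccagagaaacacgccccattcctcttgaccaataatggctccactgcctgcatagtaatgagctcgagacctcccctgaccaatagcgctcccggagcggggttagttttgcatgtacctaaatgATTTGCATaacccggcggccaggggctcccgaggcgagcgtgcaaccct
Crlf2, chr5:109558994-109559243, minus strand: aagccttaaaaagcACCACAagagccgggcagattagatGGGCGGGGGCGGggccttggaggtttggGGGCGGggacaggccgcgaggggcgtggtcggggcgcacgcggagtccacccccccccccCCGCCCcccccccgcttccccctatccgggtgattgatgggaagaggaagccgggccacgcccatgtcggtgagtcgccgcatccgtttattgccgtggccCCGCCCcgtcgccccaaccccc
Sp and Klf boxes matched in the promoters of Cxcr4 (3), Crlf2 (5), Rnpep (2) and Dgkg (1), Runx letters in Rnpep and Crlf2, the E-box in Dgkg and the octamer in Lgr4, and none of the 6 motifs matched in this window of Cnr2. Such matches describe the sequence and not a bound site.

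The Cnr2 start-site region was at 16.35, 12.77 and 12.96 rppm in knockout, against 26.01, 20.92 and 26.26 rppm in wild-type FoB (-0.78 ± 0.15, adjusted p = 0.00329), so it closed while the region 8907 bp away opened. The region over the start of Rnpep, an aminopeptidase gene, was at 6.415, 3.914 and 4.829 rppm in knockout, against 13.42, 13.78 and 16.71 rppm in wild-type FoB (-1.46 ± 0.19, adjusted p = 1.35e-05). This was the largest decrease among the start-site calls from which the promoters were taken. That of Lgr4, which encodes an R-spondin receptor like Lgr6, was at 7.864, 11.33 and 15.5 rppm in knockout, against 24.91, 22.46 and 19.34 rppm in wild-type FoB (-0.96 ± 0.16, adjusted p = 0.000601). At Crlf2, which encodes the receptor chain for TSLP, it was at 202.8, 209.7 and 214.5 rppm in knockout, against 161.3, 163.1 and 154.5 rppm in wild-type FoB (0.39 ± 0.07, adjusted p = 0.000906). Wild-type 2 lay beside the other wild-type libraries at Rnpep, Lgr4 and Crlf2, and was the lowest of them at Cnr2.

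Regulators of G protein signalling, which shorten signals from chemokine and other G protein-coupled receptors, gave the list with the most lower calls. Of 142 tested regions at 14 genes, 14 were called lower and 1 higher, with a median log2 fold change of -0.12 against -0.0208 over all tested regions. All 14 lower regions lay in the chromosome 1 stretch, at Rgs1 (3), Rgs2 (1), Rgs13 (5) and Rgs18 (5), and the higher one at Rgs8. Neighbours on 1 chromosome, they are not 14 separate observations. The region in Rgs18 with the smallest p was at 9.933, 12.15 and 6.862 rppm in knockout, against 33.68, 26.22 and 39.87 rppm in wild-type FoB (chromosome 1, 144775155 to 144775783), with a log2 fold change of -1.75 ± 0.15 (adjusted p = 1.32e-09; -1.91 without wild-type 2).

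In Rgs13, a gene of germinal centre B cells, the leading region was at 55.25, 51.29 and 44.73 rppm in knockout, against 82.13, 84.62 and 85.0 rppm in wild-type FoB (-0.73 ± 0.09, adjusted p = 4.17e-06). Wild-type 2 was level with the other wild-type libraries at Rgs13, while at Rgs18 it was the wild-type library nearest the knockouts. Near Rgs2 the called region was at 16.35, 17.1 and 13.98 rppm in knockout, against 34.77, 25.93 and 27.7 rppm in wild-type FoB (-0.87 ± 0.14, adjusted p = 0.000317). At Rgs1, a regulator known to restrain B cell migration, the 3 called regions had log2 fold changes from -0.96 to -0.75, and none of the 3 held without knockout 1 (0.299, 0.0725 and 0.124). Without wild-type 2, 10 of the list's regions were called lower and 0 higher. The losses were 2 regions each at Rgs1 (adjusted p = 0.0783 and 0.0686) and Rgs13 (0.0885 and 0.0679), and the Rgs8 region (0.0811). The list's share of called regions was 10.6%, against 0.539% of all tested regions. Over the list, 40 regions (28.2%) had an unadjusted p under 0.05, against 9.05% of all tested regions, and edgeR called 15 and DESeq2 7.

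**Figure D4:**
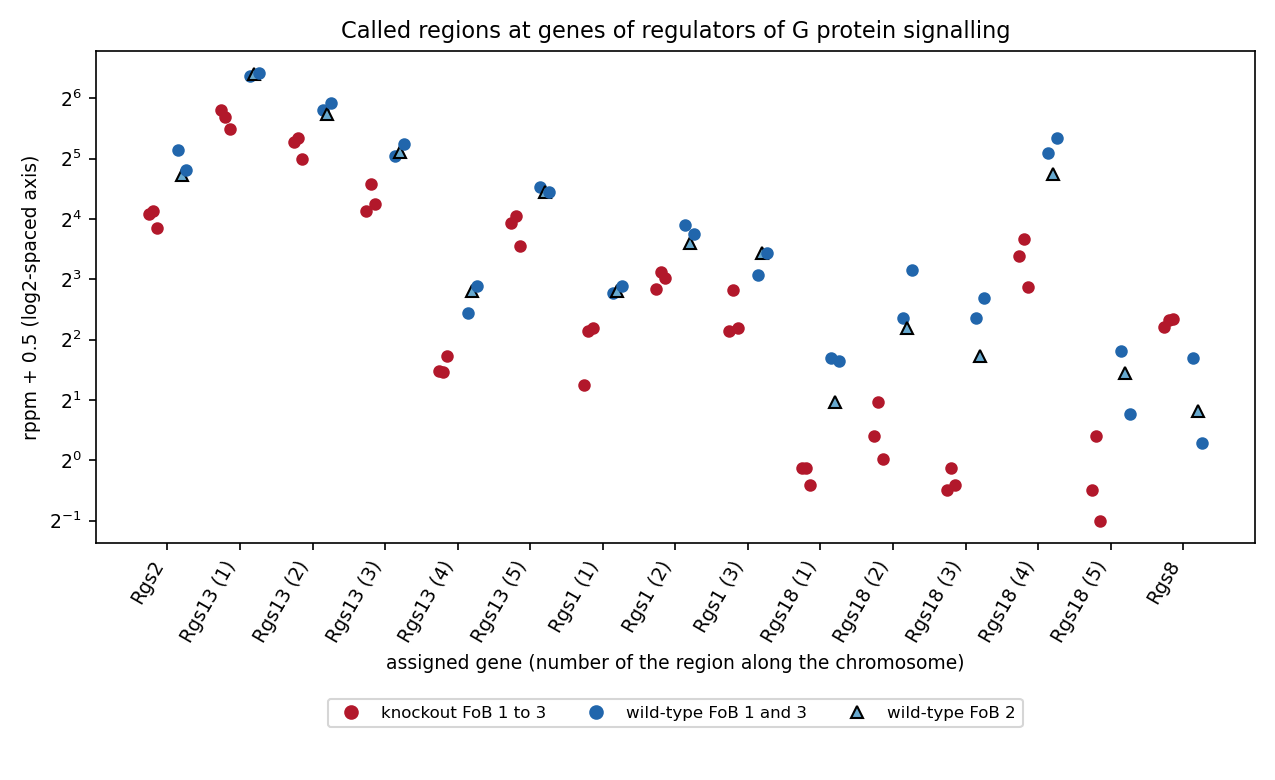
Level of the called regions at genes of regulators of G protein signalling in each FoB library (y axis, rppm plus 0.5 on a log2-spaced axis; x axis, assigned gene with the number of the region along the chromosome). All 14 regions at Rgs1, Rgs2, Rgs13 and Rgs18 are lower in the knockout libraries, and the region at Rgs8 is higher.

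The follicular programme, a list of 18 genes of B cell homing and identity, had 425 tested regions, of which 1 was called higher and 4 lower (1.18%, against 0.539% of all tested regions; median log2 fold change -0.074). They lay at Cxcr4, the receptor for the chemokine CXCL12, and at Cd55, which protects cells from complement. The start-site region of Cxcr4 was at 42.01, 37.9 and 39.14 rppm in knockout, against 65.16, 49.44 and 61.6 rppm in wild-type FoB (-0.55 ± 0.11, adjusted p = 0.00618; -0.67 without wild-type 2). Its adjusted p was 0.0503 without knockout 2, 0.0765 without wild-type 1 and 0.0564 without wild-type 3. A region 155020 bp away was called higher (1.40 ± 0.33), but not without knockout 1 (0.233), knockout 2 (0.107), wild-type 1 (0.171) or wild-type 3 (0.254). A region 13124 bp from Cd55 was at 0.4139, 0.6179 and 0.2542 rppm in knockout, against 7.392, 2.891 and 3.581 rppm in wild-type FoB (-2.38 ± 0.39, adjusted p = 0.000516). Without wild-type 2, 1 region was called higher and 6 lower. The list of chemokine receptors and migration had 1 higher and 2 lower calls among 264 tested (1.14%), all of them the same regions at Cxcr4.

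The marginal zone programme had 2 higher and 2 lower calls among 247 tested regions (1.62%; median log2 fold change -0.00363), and the same numbers without wild-type 2. The higher ones were the distal regions of Cnr2 and Cd9, and the lower ones the start-site regions of Cnr2 and of Dgkg, a diacylglycerol kinase gene. The Dgkg region was at 6.415, 5.355 and 8.133 rppm in knockout, against 12.87, 12.82 and 11.22 rppm in wild-type FoB (-0.86 ± 0.15, adjusted p = 0.00139). The only call among 207 tested regions of the integrin and adhesion list (0.483%) was the region 37465 bp from Cd9. It was at 6.415, 5.355 and 6.608 rppm in knockout, against 2.738, 3.663 and 3.104 rppm in wild-type FoB (0.86 ± 0.2, adjusted p = 0.0356). The call was lost on leaving out knockout 1, 2 or 3 or wild-type 1 or 3 (0.052 to 0.148). At Cr2, Cd1d1, Cd9, Dtx1, S1pr3 and Notch2, the regions with the highest mean had log2 fold changes between -0.21 and 0.13 and did not pass the test. For Cd9 this region lay in the gene body, at 21.51 rppm in knockout and 19.65 rppm in wild-type FoB.

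Among genes of B cell receptor signalling, 3 of 492 tested regions were called higher and 1 lower (median -0.0368), a share of 0.813% against 0.539% of all tested regions. An unadjusted p under 0.05 was found for 8.74% of the list and 9.05% of all tested regions. Both calls at Nfatc2, which encodes a calcium-dependent transcription factor, were higher. The leading one, 46426 bp away, was at 17.38, 14.01 and 15.5 rppm in knockout, against 6.845, 8.289 and 8.118 rppm in wild-type FoB (0.97 ± 0.19, adjusted p = 0.00526). Without knockout 1 its adjusted p was 0.0574. Its relative Nfatc1, in the chromosome 18 stretch, had 1 higher and 1 lower call. Without wild-type 2 the list had 3 higher and 0 lower calls, and the second Nfatc2 region had an adjusted p of 0.065. Toll-like receptor genes had 2 lower calls among 162 tested regions, a share of 1.23%. Both were assigned to Cd180, which encodes a surface regulator of responses to lipopolysaccharide, from 152924 and 155284 bp away. The closer one was at 0.2069, 0.4119 and 0.2542 rppm in knockout, against 1.916, 1.349 and 2.149 rppm in wild-type FoB (-1.54 ± 0.3, adjusted p = 0.00493). It held only 4 reads over the knockout and 30 over the wild-type libraries, and DESeq2 did not call it (0.299). The other, at -0.76, missed the threshold without wild-type 2 (0.0783).

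Transcription factor genes of the B lineage had 4 higher and 2 lower calls among 1207 tested regions (median -0.0657), a share of 0.497%, near the 0.539% of all tested regions. Of the higher ones, 3 lay more than 200 kb from Id2, an inhibitor of E proteins, and had log2 fold changes of 1.16, 0.75 and 0.88. The one with the smallest p, 229737 bp away, was at 18.42, 14.01 and 14.74 rppm in knockout, against 7.392, 9.06 and 8.356 rppm in wild-type FoB (adjusted p = 0.00563, and 0.0777 without knockout 1). The other 2 calls at Id2 were lost without knockout 3 or wild-type 1, at adjusted p from 0.052 to 0.296. The fourth was 201680 bp from Ets1 (1.1, and adjusted p = 0.0583 without wild-type 2). The lower ones were 458160 bp from Mef2c (-0.63, and 0.0795 without wild-type 2) and 2243 bp from Id3 (-0.71), which encodes another inhibitor of E proteins. Leaving out knockout 2, wild-type 1 or wild-type 3 ended all 3 of these calls, at adjusted p from 0.0512 to 0.214. Germinal centre genes had 5 lower calls among 124 tested regions, where 0.219% of all tested regions were called lower. All 5 were the neighbouring Rgs13 regions of the chromosome 1 stretch, already counted with the regulators of G protein signalling.

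Among 81 tested regions of cell cycle genes, 3 were called higher, all nearest to the mitotic kinesin gene Kif14 in the chromosome 1 stretch, and 1 lower, near Cdk1. That is a share of 4.94%, against 0.539% of all tested regions. An unadjusted p under 0.05 was found for 19.8% of the list and 9.05% of all tested regions. The 3 regions near Kif14 are neighbours on 1 chromosome. The leading Kif14 region was at 6.415, 5.561 and 6.608 rppm in knockout, against 0.5476, 1.831 and 1.194 rppm in wild-type FoB (2.06 ± 0.3, adjusted p = 0.000105; 2.33 without wild-type 2). Without wild-type 2, 5 were called higher and 0 lower. A region 24086 bp from Dusp1, the gene of a phosphatase of MAP kinases, was the only call among 395 tested regions of activation genes (0.253%). It was at 14.9, 12.15 and 11.69 rppm in knockout, against 3.559, 8.578 and 7.163 rppm in wild-type FoB (1.02 ± 0.2, adjusted p = 0.00613; 1.26 without wild-type 2). The adjusted p was 0.0697 without knockout 1 and 0.102 without wild-type 1.

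LSD1 itself, its complex and partners gave 0 calls by limma among 248 tested regions, with and without wild-type 2 (median log2 fold change -0.00573). Of these, 12 (4.84%) had an unadjusted p under 0.05, against 9.05% of all tested regions, and edgeR and DESeq2 called 0 as well. For the enzymes that add or remove methyl groups at lysines 4 and 9 of histone H3, 119 regions were tested. A region near the methyltransferase gene Kmt2a was the only one called (0.84%, against 0.539% of all tested regions). It was at 3.311, 2.678 and 1.779 rppm in knockout, against 5.476, 6.554 and 6.208 rppm in wild-type FoB (-1.12 ± 0.2, adjusted p = 0.00157). limma called no region at genes of the Notch pathway (257 tested), of canonical (205) and noncanonical (79) NF-kB signalling, of the plasma cell programme (147), of MHC class II (83), of the interferon response (64) or among housekeeping genes (59). Unadjusted p was under 0.05 in 24, 19, 3, 11, 3, 1 and 3 regions of these lists in that order. DESeq2 called none of them and edgeR 2, in the Notch pathway gene Dtx4 and the housekeeping gene Ywhaz. Without wild-type 2, the Notch list had 1 call, in the coactivator gene Maml3 (0.78, adjusted p = 0.0497).

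Markers of other cells the sort could hold were looked up in the same way. T cell, myeloid, NK, erythroid and dendritic cell lists had none by limma among 85, 90, 43, 23 and 137 tested regions, with 11 (12.9%), 9 (10%), 9 (20.9%), 4 (17.4%) and 14 (10.2%) under an unadjusted p of 0.05, against 9.05% of all tested regions. Summed over the NK list, libraries ran from 463.8 to 507.2 rppm in knockout and from 432.6 to 481.6 rppm in wild-type FoB. edgeR called 1 myeloid region (Fcgr3) and 1 NK region (Klrb1c), and DESeq2 none. The immature B cell list had 1 higher call among 174 tested regions (0.575%) and the B-1 list 2 among 107 (1.87%). Over all tested regions the share of calls was 0.539%. Spn, which encodes CD43, was called in both lists and Bhlhe41, a transcription factor gene of B-1 cells, in the second. The Spn region was at 7.657, 9.475 and 6.1 rppm in knockout, against 3.285, 5.012 and 4.298 rppm in wild-type FoB (0.81 ± 0.19, adjusted p = 0.0299). Its adjusted p was 0.101 without knockout 1, 0.205 without knockout 2, 0.179 without wild-type 1 and 0.0734 without wild-type 3. That of the Bhlhe41 region was 0.0824 or more with any 1 of the 6 libraries left out. Summed over the immature list, libraries ran from 1466 to 1585 rppm in knockout and from 1387 to 1501 rppm in wild-type FoB, and over the B-1 list from 897.2 to 997.8 and from 850.6 to 918.9 rppm. The part of such cells in the results was not tested.

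The same comparison in MZB gave 698 calls (0.777%), 451 (0.502%) higher and 247 (0.275%) lower. Of the 484 FoB regions, 450 (93.0%) had the same sign in MZB, against 58.3% of all tested regions, and 140 were called there in the same direction. That is 28.9% of the FoB calls and 20.1% of the MZB calls, and 0 regions were called in opposite directions. The FoB and MZB libraries share no sample, though whether they came from the same mice is not given. Both tests used the same estimate of the spread for each region, so their calls are not independent. In the stretches all 113 FoB calls had the same sign in MZB and 72 (63.7%) were called there. Outside them 337 of 371 had the same sign and 68 (18.3%) were called. Over regions called higher in FoB the median log2 fold change in MZB was 0.463, and over those called lower it was -0.45.

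The difference between the FoB and MZB effects itself passed the test for 1 region (0.00111%), and 5585 (6.22%) had an unadjusted p under 0.05. This region, in the coiled-coil gene Ccdc93 on chromosome 1 from 121461682 to 121462971, was at 32.07, 36.46 and 28.21 rppm in knockout, against 78.3, 65.64 and 79.98 rppm in wild-type FoB. Its log2 fold change was -1.20 ± 0.1 in FoB (adjusted p = 2.72e-10) and -0.34 in MZB (adjusted p = 0.0864). The difference of -0.86 had an adjusted p of 0.0288, and of 0.0029 without wild-type 2. The adjusted p of the difference was 0.0904 without knockout 3, 0.154 without wild-type 1 and 0.165 without wild-type 3, and in FoB the call itself held in each case. The leading Rgs18 region had a log2 fold change of -0.53 in MZB (adjusted p = 0.0845), and its difference of -1.22 ± 0.21 between FoB and MZB had an adjusted p of 0.0545, above the threshold.

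**Figure D5:**
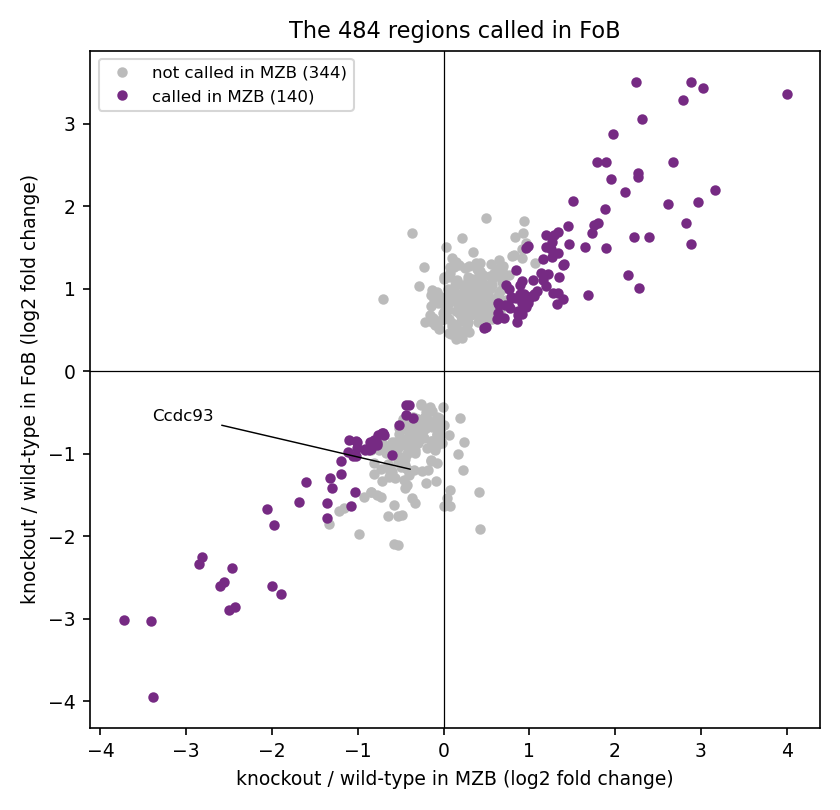
Log2 fold change of knockout over wild-type in FoB (y axis) and MZB (x axis) for the 484 regions called in FoB (points; purple, the 140 also called in MZB; grey, the others). Purple points lie in the quadrants of like sign, and the region at Ccdc93 is the one whose FoB and MZB effects differed in the test.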

How the data were processed

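ATAC-seq libraries of 10000 sorted cells were analysed. The table the authors deposited holds RPM values over its own regions (here rppm) for 94161 regions and 12 libraries, and each column sums to 1000000. The submitters' processing notes name Bowtie 1.1.1, MACS2 and the build mm10. The sources used here do not give read filters, the merging of peaks, any shift for Tn5 insertion or the base from which coordinates count, and region coordinates are printed as deposited. All values (100%) were whole multiples of 1 read within 0.01, so whole reads were recovered, 3169966 to 10375328 per library. Chi-square per degree of freedom between FoB replicates was 1.212 to 1.847, above sampling noise.

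The levels were tested as log2(rppm + 0.5) with limma 3.58.1 in R 4.3.3 (eBayes with a trend), 1 coefficient for each of the 4 groups over 12 libraries, on regions that reached 1 rppm in 3 or more libraries, which removed 4379. Two-sided p-values were adjusted by Benjamini-Hochberg over all 89782 regions, with a threshold of 0.05, and an adjusted p with no tool beside it is limma's. Errors on fold changes are standard errors. The pseudocount shrinks fold changes of low regions. Where libraries of a group do not come from separate mice, p-values measure technical spread only. Alternatives were other pseudocounts and filters, each FoB library left out, the replicate number as a block, quantile scaling, robust eBayes, a fit of the 6 FoB libraries alone, and edgeR 4.0.16 (with TMM) and DESeq2 1.42.0 on recovered reads. Placement by edgeR calls or by regions at least 4-fold apart, and recounts of calls by position, were added after seeing the data. Data were simulated with 89782 regions, 100 of them changed 2-fold and 100 changed 4-fold. There the FoB test called 49% of 2-fold and 89% of 4-fold changes in the right direction, with 5 false calls among 143. How these shares carry over to the measured libraries, with their own replicate spread and the position of wild-type 2, was not tested.

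Regions were assigned to the overlapping or nearest of 21900 protein-coding genes of a RefSeq table on GRCm38.p6, the assembly of mm10, which gave 94069 regions a gene. Named regions follow a rule: the 10 highest and 10 lowest fold changes without overlap, 1 per gene, 8 each way outside the stretches, the smallest p of each of 27 lists with a call, up to 5 each way that differ from MZB, the region at Kdm1a and 1 per marker gene. Others were named from their values: start sites, list members with calls and genes with 3 or more calls. The members, lists and rules were chosen with earlier results of these data known. Results at 2 genes of the lists are not reported here.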

Additional observations from a re-analysis of the deposited data

Results flagged for a closer look

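The region in Ccdc93 stood apart because its knockout effect differed between the cell types in a test of the difference itself. The log2 fold change of knockout over wild-type was lower by 0.86 in FoB than in MZB (difference -0.86, limma adjusted p = 0.0288). It was the only such region among those tested. With wild-type 2 left out the difference was -0.95 (adjusted p = 0.0029).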

How the results depend on the processing

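Counts of calls moved with the processing, and none of the 41 named calls changed direction. Regions called higher in FoB knockout numbered 287 with all libraries, 187 after quantile scaling, 127 with the 6 FoB libraries fitted alone and 99 with DESeq2, and 147 to 363 with 1 FoB library left out. Regions called lower numbered 197, and 122, 85 and 51 under the same 3 settings, 117 with edgeR without wild-type 2, and 96 to 187 with 1 library left out. edgeR with all libraries called 328 higher and 227 lower, a pseudocount of 0.1 gave 268 and 195, one of 2 gave 252 and 150, and robust eBayes gave 314 and 229. The 113 calls in the stretches became 62 with DESeq2. Regions where FoB and MZB effects differed numbered 0 higher and 1 lower. They became 0 lower at a pseudocount of 0.1, 1 higher and 4 lower at a pseudocount of 2, 4 lower after quantile scaling, 3 with robust eBayes, 2 with edgeR with or without wild-type 2, and 0 to 1 higher and 0 to 3 lower with 1 library left out. Of the 41 named calls, 25 held whichever FoB library was left out, 38 held with robust eBayes, 37 with edgeR (not Khdc1a, Cdk1, Cd9 and Spn) and 21 with DESeq2, which did not call 12 and gave 8 no adjusted p. Deviations of same-numbered libraries from their group means correlated at -0.09337, 0.1338 and -0.05479, and those of differently numbered ones at -0.209 to 0.1952. Taken from means of only 3 libraries, these values cannot decide whether the numbers pair the samples. With the replicate number as a block, 302 regions were called higher, 221 lower and 2 lower for the difference, and all 41 named calls were kept. Depth limits regions under about 0.8213 rppm, where wild-type 1 holds 3 reads. The causes of these shifts were not tested.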

Other observations

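Outside the stretches, several genes had 3 or more called regions that moved the same way, picked here after their values were seen. Brinp3, beside a stretch of chromosome 1, had 4 of 26 tested regions called, all lower. Its region with the largest change had a log2 fold change of -2.61 ± 0.43 (limma adjusted p = 0.000656). The genes described below moved higher. Tnip3, which encodes a relative of the NF-kB inhibitor ABIN-1, had 5 of 16 tested regions called higher, with log2 fold changes from 0.63 to 1.19. The one with the smallest p was at 28.56, 28.01 and 26.43 rppm in knockout, against 13.42, 16.29 and 18.38 rppm in wild-type FoB (0.78 ± 0.14, limma adjusted p = 0.00208). Without wild-type 2, 4 of the 5 Tnip3 regions passed, and the other had an adjusted p of 0.0675. The region with the smallest p was the only one of the 5 to hold whichever FoB library was left out. A region 37732 bp from Elovl6, a fatty acid elongase gene with 3 of 21 tested regions called higher, was at 19.87, 21.01 and 18.81 rppm in knockout, against 9.035, 9.638 and 9.55 rppm in wild-type FoB (1.04 ± 0.15, adjusted p = 5.39e-05). Its libraries stood close together within each genotype, wild-type 2 included.

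Grk5, which encodes a kinase that silences G protein-coupled receptors, had 3 of 24 tested regions called higher. They averaged 3.923, 17.33 and 13.6 rppm in knockout, against 1.377, 10.67 and 7.904 rppm in wild-type FoB. All 3 missed the threshold without knockout 2 (adjusted p = 0.0879, 0.143 and 0.109) and without wild-type 1 (0.141, 0.301 and 0.156). Ust, a gene of an enzyme that sulphates uronic acids, had 3 of 19 called higher, one of them over its start site at 12.21, 15.04 and 14.49 rppm in knockout, against 7.118, 7.518 and 5.73 rppm in wild-type FoB (0.99 ± 0.17, adjusted p = 0.00117).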
